A study of Homo sapiens with 6 samples.

Results

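The collagen genes of U87MG cells were taken as every gene whose symbol is COL, a number, the letter A and a number. Of the 27259 genes in the tables, 38 met this rule, and COL4A1, COL6A5, COL9A1, COL19A1, COL23A1 and COL26A1 were not analysed here. U87MG is an established human glioblastoma cell line. The study compared U87MG-control cells, which had received a control lentivirus for 24 h, with U87MG-LMO2 cells, which had received a lentivirus carrying LMO2 for 24 h, and asked which genes change with LMO2 and STAT3 signaling. LMO2 is a LIM domain adaptor protein that bridges transcription factors. Human LMO2 was cloned in a vector with a CMV promoter, the cells kept their own LMO2 gene, and reads from both sources fall on 1 gene. Total RNA was sequenced in 3 libraries per group. The labels do not say that the libraries came from separate cultures, so the p-values measure the spread between these libraries, which may be technical.

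Collagens are secreted proteins whose chains wind around each other into a rod that resists stretching. The fibrillar collagens, such as types I, III and V, line up into the cables of connective tissue. Network collagens, such as type IV, form the mesh of basement membranes, beaded type VI collagen makes filaments between cells and that mesh, FACIT collagens sit on the surface of fibrils, and membrane collagens cross the cell membrane. In normal brain, collagen is found mainly around blood vessels and in the meninges.

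The libraries held between 11388560 and 17891505 expected counts, the estimated number of reads per gene summed over genes. LMO2 had 0.607, 0.803 and 0.378 CPM (expected counts scaled to library size) in the control libraries and 333, 307 and 878 CPM in the LMO2 libraries, and was highest in replicate 3 (log2 fold change 9.70, SE 0.60, edgeR adjusted p = 0.000413). Replicate 3 of U87MG-LMO2 also stood apart in its counts, which differed from those of replicates 1 and 2 by 37.6 and 51.6 times the sampling noise (chi-square per degree of freedom), against 7.64 between replicates 1 and 2. In the control group, replicate 1 differed from replicates 2 and 3 by 10.6 and 10.0 times, against 2.25 between those libraries. Of the markers of glioma and mesenchymal cells, VIM was highest, at 5122 to 5642 FPKM (fragments scaled to gene length and library total). The glial genes GFAP and S100B and the stem cell gene SOX2 were at or below 0.26 FPKM in every library. OLIG2 reached at most 0.42 FPKM. By contrast, the stem cell marker NES had 6.64 to 8.71 FPKM. The 11 listed markers of other cell types summed to 9.41 to 11.1 FPKM in control and 11.2 to 11.9 FPKM in LMO2 libraries, mostly from LYZ. The endothelial gene CDH5 and the T cell gene CD3E were at or below 0.05 FPKM. Other genes of these cell types were low but present, the endothelial PECAM1 at 0.72 to 1.08 FPKM and VWF at 0.05 to 0.2 FPKM. The leukocyte gene PTPRC had 0.24 to 0.38 FPKM.

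Promoter sequence was read from RefSeq (GRCh38.p14), which gave the 250 bases before the transcription start for 27 of the 38 genes; COL1A1, COL1A2 and COL6A1 were among the 11 without an entry. COL4A5 and COL4A6 are shown because they lie head to head on chromosome X, with 379 bases between their starts, and only COL4A6 of the pair was called in the comparison below. Each window is written 5′ to 3′ on the strand of its gene, and capitals mark the 121 bases that both windows share, read from opposite strands. RefSeq lists 2 starts for COL4A6, and gene counts do not tell them apart.
COL4A5 (chrX:108439588-108439837, plus strand): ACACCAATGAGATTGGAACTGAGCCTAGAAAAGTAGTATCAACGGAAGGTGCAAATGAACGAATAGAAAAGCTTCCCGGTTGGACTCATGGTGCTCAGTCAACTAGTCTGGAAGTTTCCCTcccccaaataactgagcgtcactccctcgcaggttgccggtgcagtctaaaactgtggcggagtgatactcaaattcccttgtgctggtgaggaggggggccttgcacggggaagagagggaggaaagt
COL4A6 (chrX:108439459-108439708, minus strand): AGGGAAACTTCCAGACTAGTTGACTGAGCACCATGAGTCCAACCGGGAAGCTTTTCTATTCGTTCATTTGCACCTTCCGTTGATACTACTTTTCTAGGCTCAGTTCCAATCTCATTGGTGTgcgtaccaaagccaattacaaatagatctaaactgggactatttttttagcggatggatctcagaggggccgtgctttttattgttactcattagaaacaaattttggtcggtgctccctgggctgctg
COL7A1 and COL17A1 are shown as genes called in opposite directions. LMO2 complexes are known from blood cells to bind E-box and GATA motifs, and the study asked about STAT3, so capitals here mark the letters CANNTG (E-box), GATAA (GATA) and TTCNNNGAA (STAT), searched on both strands.
COL7A1 (chr3:48595330-48595579, minus strand): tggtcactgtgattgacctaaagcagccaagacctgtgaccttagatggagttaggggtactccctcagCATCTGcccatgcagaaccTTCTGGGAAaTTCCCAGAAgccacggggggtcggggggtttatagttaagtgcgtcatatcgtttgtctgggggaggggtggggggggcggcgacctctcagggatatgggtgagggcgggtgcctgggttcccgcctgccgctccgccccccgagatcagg
COL17A1 (chr10:104085881-104086130, minus strand): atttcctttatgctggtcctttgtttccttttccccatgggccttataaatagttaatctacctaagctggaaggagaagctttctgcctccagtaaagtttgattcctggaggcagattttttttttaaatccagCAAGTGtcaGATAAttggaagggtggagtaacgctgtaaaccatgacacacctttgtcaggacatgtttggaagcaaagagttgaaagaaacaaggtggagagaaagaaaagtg
COL7A1 was the only one of the 27 collagens with the STAT letters, as TTCTGGGAA and TTCCCAGAA with 1 base between them, and 8.09% of all genes in the table had at least 1 such match. E-box letters stood before 17 of the 27 collagens and before 66.7% of all genes, and GATA letters before 4 of the 27 and before 24.2% of all genes. Of the 6 called collagens with a window, 4 had E-box letters, 1 had GATA letters and 1 had STAT letters. The windows of COL5A1 and COL12A1, both called higher and not shown, had none of these letters. No motif overlapped another in the windows shown. A match describes letters only and is no evidence of binding.

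U87MG cells expressed collagens of most classes, but a few chains made up nearly the whole total. In the control libraries the highest mean levels were 200.3 FPKM for COL6A2, 182 FPKM for COL1A2, 164 FPKM for COL6A3, 131 FPKM for COL1A1 and 93.4 FPKM for COL6A1, and the ranges of neighbours in this order did not overlap. These are chains of type VI collagen, which forms beaded filaments, and of type I collagen, the main collagen of skin, bone and tendon. Together they held 88.1% ± 0.489 (SD, n = 3) of the summed collagen FPKM in control and 88.0% ± 0.792 in LMO2 libraries. COL6A2 ranked 316 among all genes by mean control FPKM, and COL6A1, the lowest of these chains, ranked 747. In U87MG-LMO2 the order was led by COL1A2, at 285 FPKM, then COL1A1, at 258 FPKM, and COL6A2, at 241 FPKM, whose ranges overlapped. Next came COL5A1, COL5A2, COL16A1, COL27A1 and COL7A1, which had 10.1 to 22.2 FPKM in control. COL3A1, a fibrillar chain that usually accompanies type I in skin and vessels, had only 0.197 FPKM in control.

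**Figure D1:**
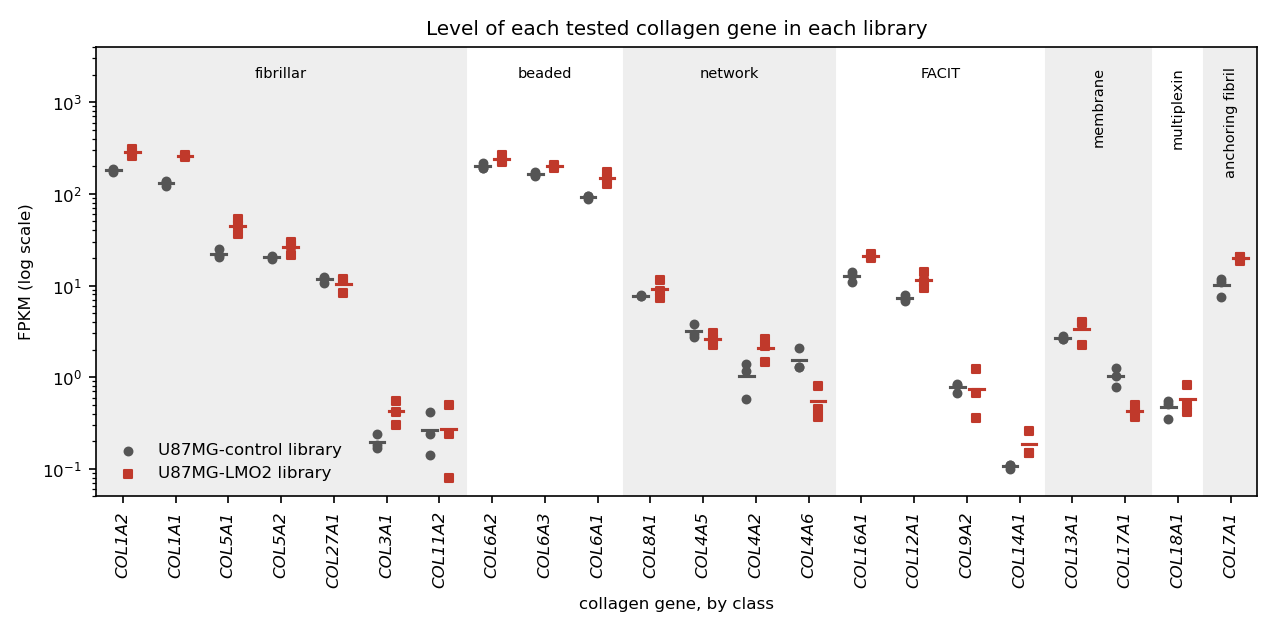
FPKM of the 22 tested collagen genes (log scale) in each U87MG-control library (grey circles) and each U87MG-LMO2 library (red squares), grouped by class, with a line at the group mean. The type I and type VI chains sit between 88.4 and 312 FPKM in all libraries. The groups of COL1A1, COL1A2, COL5A1, COL6A1, COL7A1, COL12A1 and COL16A1, all called higher, do not overlap. Nor do those of COL3A1, COL4A2, COL5A2, COL6A2, COL6A3 and COL14A1, which were not called, or of COL4A6 and COL17A1, which were called lower.

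The other 16 collagens had at most 15 counts and at most 0.19 FPKM in any library and did not pass the filter on low counts. These were the fibrillar COL2A1, COL5A3, COL11A1 and COL24A1, the network COL4A3, COL4A4, COL8A2 and COL10A1, and the beaded COL6A6. The rest were the FACIT COL9A3, COL20A1, COL21A1 and COL22A1, the membrane COL25A1, the multiplexin COL15A1, and COL28A1, which was classed as other. In 8 of the 16 no library exceeded 3 counts, a level at which no difference was detectable at this depth.

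With LMO2, collagen mRNA was higher as a whole. The type I and type VI chains took most of the increase, in proportion to their level. They summed to 771 FPKM in control and 1134 FPKM in LMO2 on average, a ratio of 1.47. Their share of collagen FPKM was 88.1% in control and 88.0% in LMO2. By class, the sums were higher for the fibrillar, FACIT and beaded collagens and for the anchoring fibril gene COL7A1. Summed over all 38 genes, the level was 892, 860 and 872 FPKM in the control libraries and 1279, 1328 and 1261 FPKM in the LMO2 libraries, 1.47 times higher. Every LMO2 library was above every control library. Collagen genes took 0.50% to 0.519% of all counts in control and 0.740% to 0.767% in LMO2 libraries. In bulk RNA, a change in the number of cells making a transcript and a change in its amount per cell cannot be told apart.

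By class, the ratios of LMO2 to control differed in size, without a test of that difference. Fibrillar collagens summed to 368 ± 10.4 FPKM in control and 626 ± 14.6 FPKM in LMO2 (SD, n = 3), a ratio of 1.70. The beaded class went from 457 ± 24.5 to 591 ± 46.1 FPKM, a ratio of 1.29. FACIT collagens went from 21.0 ± 2.11 to 33.4 ± 3.10 FPKM, and the anchoring fibril gene COL7A1 from 10.1 ± 2.28 to 19.8 ± 1.20 FPKM, ratios of 1.59 and 1.96. In these 4 classes the groups of libraries did not overlap. They overlapped in the network class, at 13.7 ± 0.595 and 14.7 ± 2.39 FPKM, in the membrane class, at 3.71 ± 0.246 and 3.8 ± 0.998 FPKM, and in the multiplexins, at 0.597 ± 0.131 and 0.713 ± 0.196 FPKM. The network sum is without COL4A1, and COL8A1 alone had 7.78 of its 13.7 FPKM in control. The fibrillar share of collagen FPKM was accordingly 42.1% ± 1.54 in control and 48.6% ± 2.35 in LMO2, and the beaded share 52.3% ± 2.04 and 45.8% ± 2.34.

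**Figure D2:**
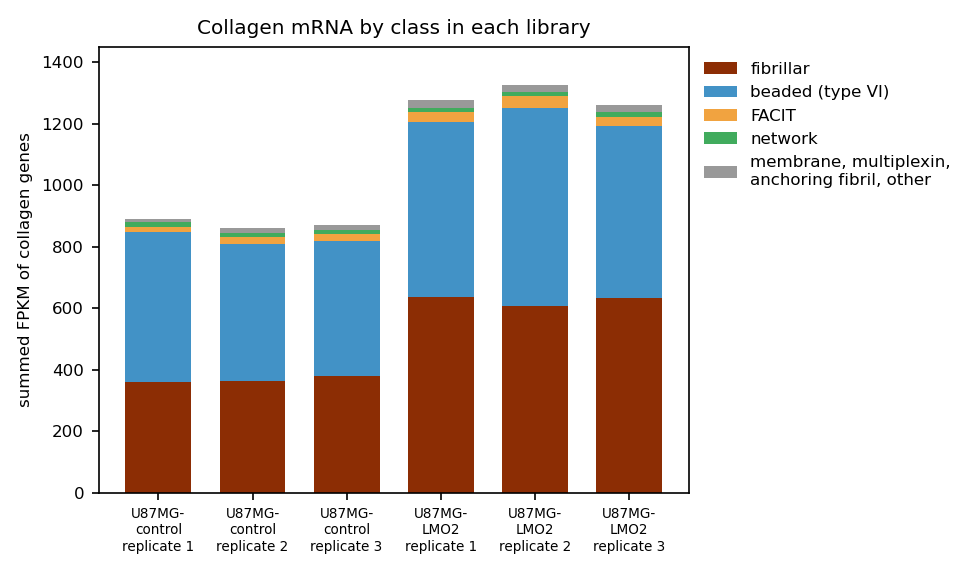
Summed FPKM of the 38 collagen genes in each of the 6 libraries, stacked by class from 0. Control bars reach 860 to 892 FPKM and LMO2 bars 1261 to 1328 FPKM, and the fibrillar part goes from a mean of 368 to 626 FPKM.

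Gene by gene, 7 collagens were called higher and 2 lower in U87MG-LMO2 among the 22 tested (edgeR's quasi-likelihood test, Benjamini-Hochberg adjusted p under 0.05 over 16092 genes). Among all genes tested, 7.48% were called, 4.72% higher and 2.75% lower. CPM did not overlap between the groups for 13 collagens that were higher and 2 that were lower, against 17.5% and 16.6% of all genes tested. The median log2 fold change was 0.47 over the tested collagens and -0.011 over all tested genes, and 18 of the 22 had a positive value.

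**Figure D3:**
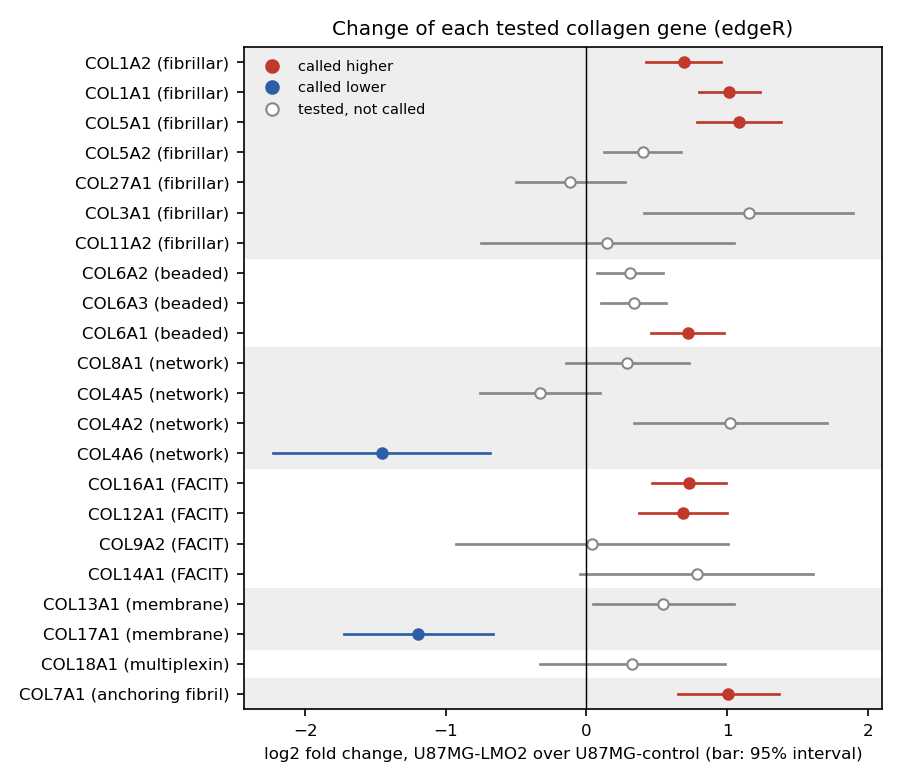
Log2 fold change of U87MG-LMO2 over U87MG-control for each of the 22 tested collagen genes, with the 95% interval of the edgeR fit, by class. Filled points are the 7 genes called higher (red) and the 2 called lower (blue), and open points the 13 not called; values run from -1.46 for COL4A6 to 1.15 for COL3A1.

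Of the 11 fibrillar collagens, 7 were tested, 3 were called higher and none lower, with a median log2 fold change of 0.69. COL1A1 and COL1A2 encode the chains of type I collagen. COL1A1 had 121, 136 and 137 FPKM in control and 263, 261 and 250.2 FPKM in LMO2 libraries. Its groups lay far apart, with little spread in either, and the log2 fold change was 1.02 (SE 0.096, edgeR adjusted p = 0.00238). COL1A2 had 184, 175 and 188 FPKM in control and 284, 259 and 312 FPKM in LMO2 libraries. It was higher in every LMO2 library, most so in replicate 3, and changed by 0.69 (SE 0.12, edgeR adjusted p = 0.0144). COL5A1, a chain of type V collagen that sets the diameter of type I fibrils, had 24.9, 20.3 and 21.4 FPKM in control and 45.9, 52.8 and 36.4 FPKM in LMO2 libraries. Its log2 fold change of 1.08 (SE 0.13, edgeR adjusted p = 0.00489) was the largest of the collagens called higher, although replicate 3 lay nearest to the controls.

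The partner chain COL5A2 had 20.3, 19.3 and 21.2 FPKM in control and 30.2, 27.6 and 21.3 FPKM in LMO2 libraries. In FPKM replicate 3 was at the level of the highest control, while in CPM, scaled as in the test, it had 150 against 139. The test scaled library sizes by a factor of 0.929 for this library and 1.01 to 1.02 for the others. The change of 0.40 was not called (edgeR adjusted p = 0.0792). COL3A1 had 0.17, 0.24 and 0.18 FPKM in control and 0.42, 0.30 and 0.55 FPKM in LMO2 libraries. The groups did not overlap at this low level, and the change of 1.15 was not called (SE 0.33, edgeR adjusted p = 0.0678). COL27A1, a cartilage fibrillar chain named here after its values were seen, was the only tested fibrillar collagen with a negative value, -0.11 (edgeR adjusted p = 0.707).

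In the beaded class all 3 tested chains of type VI collagen were higher in every LMO2 library than in every control library, but only COL6A1 was called. COL6A1 had 95.9, 95.8 and 88.4 FPKM in control and 147, 175 and 127 FPKM in LMO2 libraries. The LMO2 values spread widely, all above the controls, and the change was 0.72 (SE 0.11, edgeR adjusted p = 0.0116). COL6A2, which lies 93.1 kb from COL6A1 on chromosome 21 (RefSeq, GRCh38.p14), had 215, 194 and 192 FPKM in control and 231, 268 and 225 FPKM in LMO2 libraries. The lowest LMO2 library was close to the highest control, and its change of 0.31 had a 95% interval of 0.079 to 0.55 (edgeR adjusted p = 0.10). COL6A3, whose long chain completes the type VI molecule, went from 164 to 199.9 FPKM on average, a change of 0.34 with an interval of 0.11 to 0.57 (edgeR adjusted p = 0.0808).

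Of the 8 FACIT collagens, 4 were tested and 2 were called higher, with a median log2 fold change of 0.71. COL16A1 had 10.96, 13.1 and 14.2 FPKM in control and 20.4, 22.2 and 19.9 FPKM in LMO2 libraries. Its lowest LMO2 library was well above its highest control, and the change was 0.73 (SE 0.12, edgeR adjusted p = 0.0116). COL12A1, which binds type I fibrils, had 6.76, 7.06 and 7.85 FPKM in control and 11.03, 14.02 and 9.47 FPKM in LMO2 libraries. Replicate 3 was again the nearest to the controls, but in CPM only by little, with 97.9 against 99.4 in replicate 1. The change was 0.68 (SE 0.14, edgeR adjusted p = 0.0261). COL9A2, a chain of cartilage type IX collagen, had 0.67 to 0.85 FPKM in control and 0.36 to 1.22 FPKM in LMO2 libraries, and its value of 0.04 (edgeR adjusted p = 0.961) turned negative in 6 of the 15 alternative fits. COL7A1, which forms the anchoring fibrils beneath epithelia, had 7.51, 10.9 and 11.8 FPKM in control and 20.6, 20.4 and 18.4 FPKM in LMO2 libraries. The LMO2 libraries lay close together and above all controls, and the change was 1.01 (SE 0.16, edgeR adjusted p = 0.0114).

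Both collagens called lower belonged to classes whose sums overlapped between the groups. COL4A6, a network chain of some epithelial and smooth muscle basement membranes, had 2.09, 1.28 and 1.3 FPKM in control and 0.45, 0.37 and 0.81 FPKM in LMO2 libraries. It fell by 1.46 on the log2 scale (SE 0.34, edgeR adjusted p = 0.0393), and replicate 3 lay nearest to the controls. COL17A1, a membrane collagen of hemidesmosomes, had 1.26, 0.79 and 1.02 FPKM in control and 0.50, 0.37 and 0.42 FPKM in LMO2 libraries. Its groups did not overlap, and it fell by 1.19 (SE 0.23, edgeR adjusted p = 0.0230).

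Of the 8 network collagens, 4 were tested, and COL4A6 was the only one called. COL4A5, which assembles with COL4A6, had 3.84, 2.93 and 2.75 FPKM in control and 2.58, 2.22 and 3.07 FPKM in LMO2 libraries. These groups overlapped, and the change was -0.33 with a 95% interval of -0.76 to 0.094 (edgeR adjusted p = 0.302). COL4A2, a chain of the common type IV molecule, had 0.58, 1.16 and 1.38 FPKM in control and 2.62, 2.20 and 1.45 FPKM in LMO2 libraries. Control replicate 1 was the lowest and the groups nearly met in FPKM, and the change of 1.02 (SE 0.30, edgeR adjusted p = 0.0761) was not called. COL8A1, a short network chain of vessel walls and the cornea, had 7.76 to 7.81 FPKM in control and 7.24 to 11.6 FPKM in LMO2 libraries, a change of 0.29 (edgeR adjusted p = 0.373). Of the remaining named genes, the membrane collagen COL13A1 changed by 0.55 (edgeR adjusted p = 0.163) and the multiplexin COL18A1, the source of endostatin, by 0.33 (edgeR adjusted p = 0.513), and both had overlapping groups. The 2 tested collagens left, COL11A2 and COL14A1, had at most 0.5 FPKM in any library and were not called.

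Chains that assemble into 1 molecule were compared by their ratio in each library, which does not depend on that library's scaling. COL1A1 over COL1A2 was 0.657, 0.777 and 0.729 in control and 0.926, 1.00 and 0.803 in LMO2 libraries, a difference of 0.33 on the log2 scale. COL5A1 over COL5A2 had a geometric mean of 1.09 in control and 1.71 in LMO2, a difference of 0.65. For type VI, COL6A1 over COL6A2 had 0.466 and 0.618, and COL6A3 over COL6A1 had 1.75 and 1.34, differences of 0.41 and -0.38. In each of these 4 ratios the groups did not overlap, and each gave p = 0.1 in a two-sided exact permutation test, the smallest p that 3 against 3 libraries allow, so none could pass 0.05 (adjusted p = 0.1). The ratio of COL4A6 to COL4A5, chosen after the values of COL4A6 were seen, was 0.544, 0.437 and 0.473 in control and 0.174, 0.167 and 0.264 in LMO2 libraries. It was lower in every LMO2 library and is given with no test.

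**Figure D4:**
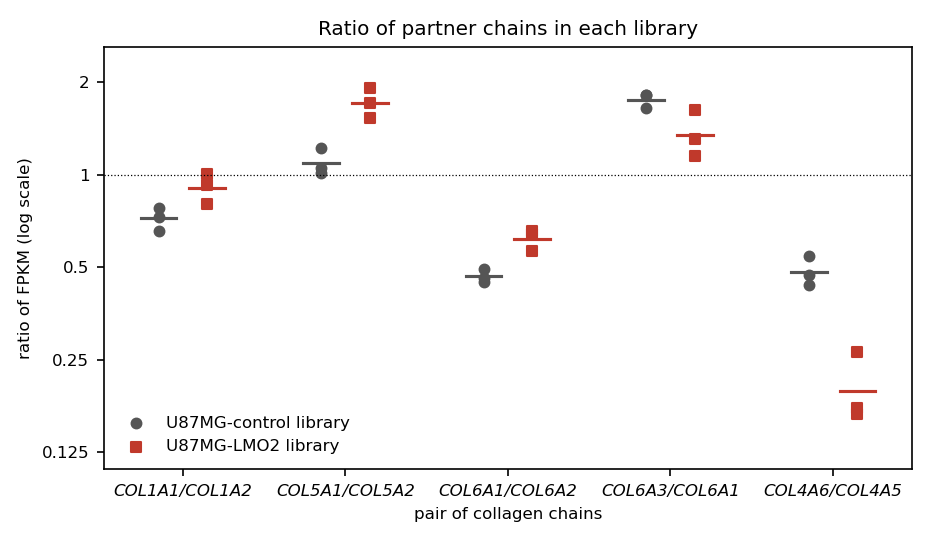
Ratio of FPKM (log scale) of partner collagen chains in each U87MG-control library (grey circles) and each U87MG-LMO2 library (red squares), with a line at the geometric mean. The groups are apart in all 5 pairs; COL5A1/COL5A2 goes from 1.09 to 1.71 and COL4A6/COL4A5 from 0.483 to 0.197.

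The transcripts of the tested collagens were rich in G and C, with a median GC content of 57.3% against 49.8% over all tested genes. When each library's trend of CPM on GC content was removed, 5.44% of all genes were called, and 8 of the 9 collagen calls were kept. The median over tested collagens was then 0.41, COL1A1 changed by 0.83 and COL5A1 by 0.93, and COL6A1 lost its call at 0.50 (edgeR adjusted p = 0.0932). COL6A2 changed by 0.06 in this fit. For the ratios, the log2 fold change of one chain in this fit was taken minus that of its partner. This measure is based on counts, unlike the FPKM ratios per library above. It was 0.12 for COL1A1 to COL1A2, 0.52 for COL5A1 to COL5A2, 0.44 for COL6A1 to COL6A2 and -0.17 for COL6A3 to COL6A1.

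Which libraries were included changed the count of collagens called. Without U87MG-LMO2 replicate 3, 14 collagens were called, with 14.7% of all genes, and these held all 9 named above plus COL4A2, COL5A2, COL6A2, COL6A3 and COL13A1. Without U87MG-control replicate 1, only COL1A1, COL5A1 and COL7A1 were called, with 1.03% of all genes. This loss was not particular to that library. Without control replicate 2, 3 collagens were called, and without control replicate 3 or U87MG-LMO2 replicate 1, 4 were called. Those fits called 102 to 177 genes higher and 42 to 56 lower, of 16302 to 16499 tested. Without U87MG-LMO2 replicate 2, 9 collagens were called, with 579 genes higher and 304 lower of 16347. With all libraries, DESeq2 called 12 collagens and 10.7% of all genes, and edgeR with no filter on low counts called 11 collagens and 5.31% of all genes. COL1A1 and COL5A1 kept their calls in all 15 alternative fits, and COL4A6 lost its call in 5 of the 6 fits that left out 1 library. In those 6 fits, COL7A1 and COL16A1 kept their calls in 4, COL6A1 and COL17A1 in 3, and COL1A2 and COL12A1 in 2. Among the 22 tested collagens, the LMO2 library nearest to the control mean was replicate 3 for 10 genes, replicate 1 for 8 and replicate 2 for 4. Among the 9 called collagens these counts were 5, 3 and 1. They were not set against all genes, and a link to the level of LMO2 was not tested.

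**Figure D5:**
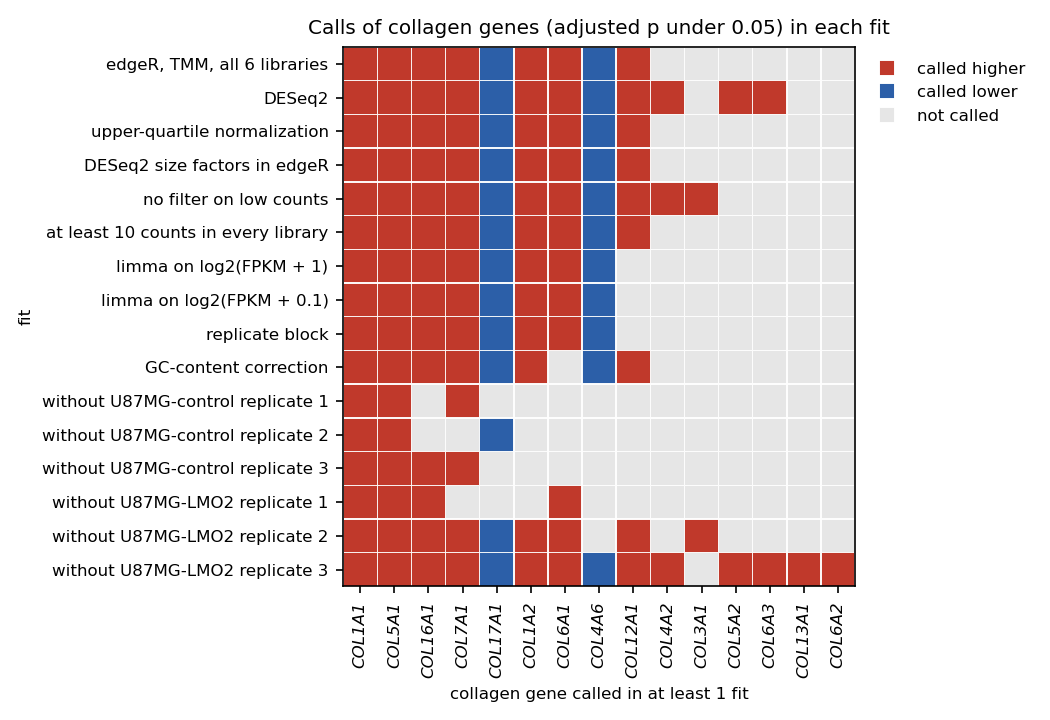
Collagen genes (columns) called higher (red), called lower (blue) or not called (grey) at an adjusted p under 0.05 in each of 16 fits (rows), the first being edgeR with TMM on all 6 libraries. COL1A1 and COL5A1 are called in every fit, and the fits that leave out 1 library call between 3 and 14 collagens.

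Genes that fold, export, trim, cross-link, bind and degrade collagen were read from 7 lists, of whose 65 genes 53 were tested; 9 were called higher and 1 lower, where 4.72% of all genes tested were called higher and 2.75% lower. Of the cross-linking enzymes, 4 of 5 tested were called higher. TGM2, a transglutaminase that joins matrix proteins, had 16.6, 15.3 and 15.7 FPKM in control and 36.9, 41.9 and 60.0 FPKM in LMO2 libraries, a change of 1.67 (SE 0.19, edgeR adjusted p = 0.00412). Its groups lay far apart, and replicate 3 was the highest. Among the lysyl oxidases, which oxidize collagen lysines for cross-links, LOXL3 changed by 1.15 (SE 0.13, edgeR adjusted p = 0.00430) and LOXL1 by 0.81 (SE 0.17, edgeR adjusted p = 0.0317). The remaining gene of this list called higher was LOXL2, at 0.78 (edgeR adjusted p = 0.00448), named after its values were seen.

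Of the 18 tested genes for folding and hydroxylation, 2 were called higher and 1 lower. FKBP10, a collagen prolyl isomerase of the endoplasmic reticulum, had 93.2 to 94.0 FPKM in control and 125.2 to 149.9 FPKM in LMO2 libraries (change 0.59, edgeR adjusted p = 0.0291), and P3H4, a component of a collagen-modifying complex, changed by 0.37 (edgeR adjusted p = 0.0437). P4HA1, a catalytic subunit of prolyl hydroxylase, fell by 0.99 (edgeR adjusted p = 0.0359), from 10.7 to 19.1 FPKM in control to 6.09 to 6.89 FPKM in LMO2 libraries. Control replicate 1 was the highest, and without it the change was -0.67 (edgeR adjusted p = 0.0693). P4HA1 also lost its call after the GC-content correction, at -0.75 (edgeR adjusted p = 0.0832), and in 5 of the 6 fits that left out 1 library. Of 6 tested genes for propeptide cleavage, BMP1, the procollagen C-proteinase, was the only one called, at 0.77 (edgeR adjusted p = 0.0136). In the degradation list 2 of 4 tested were called higher, the gelatinase MMP2 at 0.62 (edgeR adjusted p = 0.0285) and the membrane collagenase MMP14 at 0.73 (edgeR adjusted p = 0.0116). In edgeR none was called among 7 tested export genes, 10 collagen receptors and 3 fibril-binding proteoglycans.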

How the data were processed

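RNA-seq was made by the Beijing Genomics Institute from total RNA of 6 U87MG libraries, 3 U87MG-control and 3 U87MG-LMO2. The authors deposited 1 table per library with expected counts (estimated reads per gene, not normalized) and FPKM per gene. The submitters' processing notes name Bowtie2, BWA and GRCh38.p12, without roles or versions; the counting program is not given in the sources used here. A deposited comparison table gave gene symbols and the authors' mean FPKM; its ratio and probability columns were not used. In the table of U87MG-LMO2 replicate 3, 3 lines were unreadable, and the 131 genes whose library values did not give the authors' mean were left out (0.35% of control counts, 0 collagens). Genes were matched by Entrez ID; partner genes filed under older symbols were matched through RefSeq.

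Expected counts were rounded and tested with edgeR 4.0.16 (R 4.3.3; TMM, filterByExpr, quasi-likelihood F-test, two-sided; SE as the log2 fold change over the root of F), with Benjamini-Hochberg adjustment over 16092 genes and a threshold of 0.05. Levels between genes were compared in FPKM only. Chain ratios were compared by an exact permutation test over libraries. Alternatives were DESeq2 1.42.0, other size factors, other count filters (none, or 10 counts in every library), limma 3.58.1 on log2(FPKM + 1) and log2(FPKM + 0.1), a replicate block, a GC-content correction (lowess, span 0.3), TPM and leaving out each library. Scripts were tested on simulated data.

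Genes named were LMO2, every collagen called, the 3 highest of each class, those nearest the threshold, both chains of each ratio, and the called partner genes, at most 3 per list; exceptions are stated. Collagen classes, partner and marker lists and tests were chosen with earlier results of these data known. Same-numbered libraries did not deviate together (correlations of deviations -0.117, -0.0034 and -0.041), so numbers were taken as names.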

Additional observations from a re-analysis of the deposited data

How the results depend on the processing

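Leaving out 1 library at a time gave 2 to 12 collagens called higher (7 with all libraries) and 0 to 2 lower (2). Partner genes called were 3 to 12 higher (9) and 0 to 5 lower (1). The same fits tested 16302 to 16499 genes and called 102 to 1307 of them higher (760 of 16092 with all libraries). They called 42 to 1102 lower (443), so calls rose and fell over all genes too. The highest counts came without U87MG-LMO2 replicate 3. Summed levels were higher still as TPM, where the log2 ratio was 0.84 for fibrillar collagens (0.76 as FPKM) and 0.63 for all collagens (0.56). COL9A2 turned negative in limma on log2(FPKM + 1), at -0.055, and on log2(FPKM + 0.1), at -0.18, with the replicate block, at -0.089, after the GC-content correction, at -0.30, without control replicate 3, at -0.06, and without U87MG-LMO2 replicate 3, at -0.59 (-0.59 to 0.38 over the libraries left out); the cause was not tested. Replicate numbers did not pair the libraries. With the replicate block, 8 collagens were called (COL12A1 lost) and 0 partner genes lower, and P4HA1, FKBP10 and P3H4 lost their calls. Calls also fell over all 16092 genes tested, to 387 higher and 189 lower, against 760 and 443 without the block. COL12A1 also lost its call in limma on both FPKM scales. P3H4 was called in 5 of 15 alternatives. Over the 6 fits that left out 1 library, TGM2 and LOXL3 kept their calls in 6, MMP14 in 4 and BMP1 in 3. LOXL1, MMP2 and FKBP10 kept theirs in 2. The 9 collagens called were all among the 12 of DESeq2 and the 11 of the fit with no filter on low counts. The ratio of COL4A1 to COL4A2 was not run because COL4A1 was not analysed here. Precision is limited by 3 libraries per group and, for the 16 untested collagens, by depth.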

Other observations

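Genes filed beside the collagens carried few reads. COL4A2-AS1, an antisense gene at COL4A2, had 1, 1 and 3 expected counts in the control libraries and 7, 11 and 4 in the LMO2 libraries. COL5A1-AS1, antisense to COL5A1, had 0, 2 and 1 counts in control and 3, 2 and 1 in LMO2 libraries. The sources used here do not say that reads were counted by strand, so reads of a gene and its antisense partner cannot be told apart. The type VI pseudogenes COL6A4P1 and COL6A4P2 reached at most 0.03 and 0.09 FPKM in any library.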
